A study of Mus musculus with 13 samples.

Results

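The genes examined are 45 genes of G2 phase and mitosis, given as a list and taken by symbol from the expression table. All 45 of the 45 listed symbols were rows of the table and had a mean of at least 0 log2 CPM (reads of a gene scaled to the library's total, on a log scale) over the 13 libraries, so they form 45 of the 11867 rows tested and of the 24062 rows in all. The cells were mouse bone marrow LK cells, the lineage-negative, Sca-1-negative, Kit-positive fraction that holds myeloid and erythroid progenitors.

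RNA came from LK cells of Boy/J mice that had been irradiated with 7.0 and 4.75 Gy 3 hours apart and had received marrow of 1 of 4 genotypes. The marrow was TIFAB+/+;miR-146a+/+ (WT, 3 libraries), TIFAB-/-;miR-146a+/+ (TIFAB_KO, 3 libraries), TIFAB+/+;miR-146a-/- (miR-146a_KO, 3 libraries) or TIFAB-/-;miR-146a-/- (dKO, 4 libraries). Mice were between 2 and 5 months old per the labels, and irradiation and transplantation were shared by all groups, WT included. TIFAB is an inhibitor of TRAF6 signalling and miR-146a is a microRNA that lowers TRAF6 and IRAK1, and both genes lie in the human chromosome 5q region that is lost in del(5q) myelodysplastic syndrome. The study asked whether losing both genes exceeds the effect of losing either. No source used here says whether sorted cells were gated on donor origin, so the share of host cells is unknown. The labels give 3 mice per group while dKO has 4 libraries, and p-values measure the spread between libraries, part of which may be technical.

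Cells enter mitosis when cyclin B bound to CDK1 becomes active, after which chromosomes condense, kinesins and microtubule proteins build the spindle, and kinetochores attach chromosomes to it. The anaphase-promoting complex then marks cyclin B and securin for destruction, sister chromatids part, and the cell divides at a contractile ring. The genes for these proteins are transcribed together late in the cell cycle, largely through promoter elements bound by the DREAM and MMB complexes and by NF-Y. In marrow the LK fraction is a dividing population, so its G2 and mitosis transcripts are abundant. In bulk RNA fewer cells in mitosis and less mitotic RNA per cell cannot be told apart.

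Libraries held 7.83 to 12.8 M reads. Tifab checked the labels: it lay at 5.31 to 5.63 log2 CPM for WT, 6.01 to 6.15 for miR-146a_KO, 3.17 to 3.69 for TIFAB_KO and 1.72 to 3.46 for dKO, so both groups labelled TIFAB-/- were below the others without overlap. The row for the miR-146a gene, Mir146, had 0 reads in all 13 libraries and checks nothing. For the LK label, Kit lay at 8.08 to 8.84 log2 CPM and Mpo, a granule enzyme of myeloid progenitors, at 12.7 to 13.8, beside 5 to 46 reads of Ly6a, which encodes Sca-1. The T cell gene Cd3e had 1 to 9 reads. TIFAB_KO replicate 3 and dKO replicate 3 stood apart, with median correlations with the other libraries of 0.947 and 0.951 against 0.962 to 0.974 for the rest.

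The promoters show a sequence feature that is known for genes of this class, so a high share was likely from the choice of genes. RefSeq promoters on GRCm38.p6, from 250 bases before to 50 after the start site, matched 39 of the 45 genes, and Ccna2, Tpx2, Aurkb, Kif20a, Dlgap5 and Smc4 had no entry. A pair of elements known from late cell cycle promoters were searched on both strands: the CHR, as TTTGAA or TTCGAA, and the CCAAT box bound by NF-Y. The 6 matched genes with the smallest p in a test across the 4 groups are printed, 5′ to 3′, with every match to either element in capitals (TTCAAA and ATTGG are the same elements read from the other strand).
Ckap2 promoter (chr8:22185770-22186069, minus strand): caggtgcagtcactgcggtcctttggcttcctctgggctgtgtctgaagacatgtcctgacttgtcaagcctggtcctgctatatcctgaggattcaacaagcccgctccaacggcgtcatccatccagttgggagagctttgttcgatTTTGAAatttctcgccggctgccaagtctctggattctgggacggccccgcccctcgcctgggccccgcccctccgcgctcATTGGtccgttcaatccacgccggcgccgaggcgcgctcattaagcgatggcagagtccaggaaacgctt
Ccnb1 promoter (chr13:100786437-100786736, minus strand): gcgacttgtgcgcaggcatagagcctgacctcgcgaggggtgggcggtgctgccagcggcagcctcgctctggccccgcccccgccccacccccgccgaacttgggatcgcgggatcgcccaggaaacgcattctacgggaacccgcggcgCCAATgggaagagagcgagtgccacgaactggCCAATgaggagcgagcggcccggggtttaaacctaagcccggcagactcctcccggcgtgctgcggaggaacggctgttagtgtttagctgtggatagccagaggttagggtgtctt
Ect2 promoter (chr3:27153805-27154104, minus strand): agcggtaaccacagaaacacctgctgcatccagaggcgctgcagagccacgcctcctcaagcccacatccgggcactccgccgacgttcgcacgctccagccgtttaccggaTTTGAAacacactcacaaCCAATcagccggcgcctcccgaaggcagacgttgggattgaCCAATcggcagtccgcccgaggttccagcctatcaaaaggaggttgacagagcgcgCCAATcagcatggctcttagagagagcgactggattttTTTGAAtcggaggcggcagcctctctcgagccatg
Anln promoter (chr9:22389157-22389456, minus strand): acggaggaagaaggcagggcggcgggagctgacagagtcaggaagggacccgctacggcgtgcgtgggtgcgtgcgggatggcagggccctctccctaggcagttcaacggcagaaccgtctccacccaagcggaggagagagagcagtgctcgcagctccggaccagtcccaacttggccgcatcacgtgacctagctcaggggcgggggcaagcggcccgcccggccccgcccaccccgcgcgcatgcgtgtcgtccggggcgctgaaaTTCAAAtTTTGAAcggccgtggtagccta
Kif11 promoter (chr19:37376132-37376431, plus strand): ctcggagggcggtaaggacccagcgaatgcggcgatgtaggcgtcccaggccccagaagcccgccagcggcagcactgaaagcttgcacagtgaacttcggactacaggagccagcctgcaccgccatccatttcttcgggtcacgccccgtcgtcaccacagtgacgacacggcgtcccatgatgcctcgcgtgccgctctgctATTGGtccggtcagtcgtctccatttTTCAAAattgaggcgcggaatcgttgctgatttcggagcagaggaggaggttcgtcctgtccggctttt
Ckap5 promoter (chr2:91526512-91526811, plus strand): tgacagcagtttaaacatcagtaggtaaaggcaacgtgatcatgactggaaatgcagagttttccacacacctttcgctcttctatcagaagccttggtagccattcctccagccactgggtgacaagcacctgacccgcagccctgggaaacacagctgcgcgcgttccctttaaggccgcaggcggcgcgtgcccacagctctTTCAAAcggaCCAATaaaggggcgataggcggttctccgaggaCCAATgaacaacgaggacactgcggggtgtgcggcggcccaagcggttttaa

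In these sequences Ckap2 carried 1 CHR and 1 CCAAT match, Kif11 1 of each, and Ckap5 1 CHR and 2 CCAAT matches. Ect2 held 2 CHR and 3 CCAAT matches in the window of the start site printed, and the window of its other start site overlaps it. Anln held 2 CHR matches and no CCAAT, and Ccnb1, which encodes cyclin B1, held 2 CCAAT boxes and no match to either CHR form. Over all 39 promoters, TTTGAA occurred in 30 (76.9%), compared with 1298 of 8972 promoters of tested genes (14.5%) and 20.2% of all 27025 gene promoters in the table. TTCGAA was in 3 (7.7%, against 2.5% of tested genes). At least 1 CCAAT was in 30 (76.9% against 43.2%) and at least 2 in 22 (56.4% against 17.1%), counting 1 overlapping pair on opposite strands, in Ube2c, as 2 matches. Both elements together occurred in 26 (66.7% against 8.1% of tested genes).

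Most CHR matches sat near the start site. A match within 50 bases of it was present in 28 of the 39 promoters (71.8%), compared with 399 of 8972 tested genes (4.4%). Other mitotic genes, from a separate list, had such a match in 17 of 41 (41.5%), S phase genes in 2 of 31 (6.5%) and G1 and E2F regulators in 3 of 14 (21.4%). The promoters' GC content was close to that of tested genes, with medians of 59.0% and 61.7%. The promoters of Birc5, Nuf2, Nusap1 and Tacc3 had neither element in this window. These are letter matches only, and binding was not measured.

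**Figure D1:**
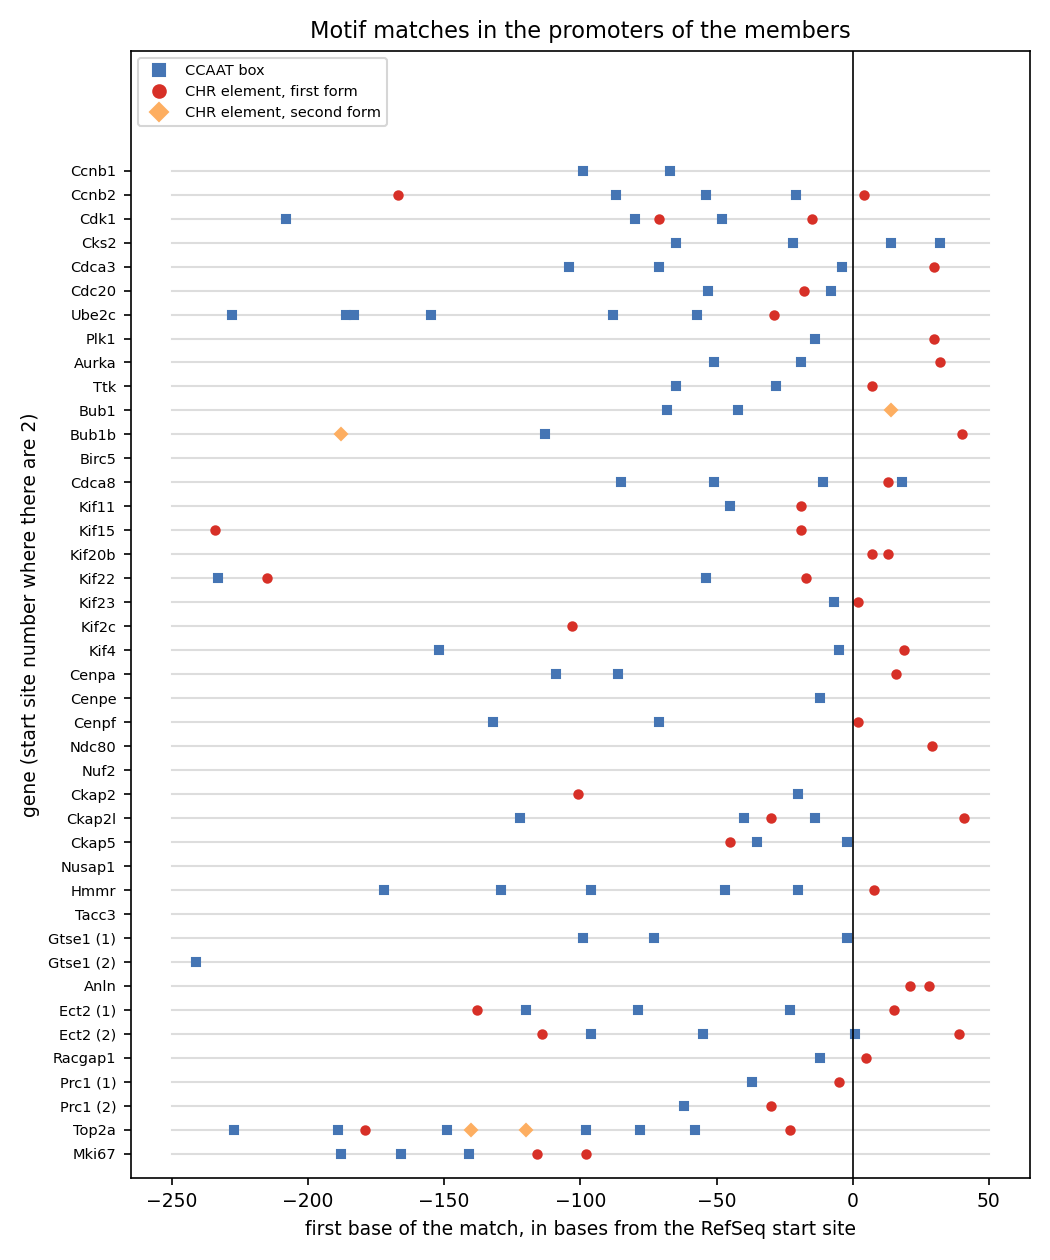
Positions of CCAAT boxes (squares) and the 2 forms of the CHR element (circles, first form; diamonds, second form) along the RefSeq promoters of 39 of the genes, 1 line per start site, with the distance from the start site in bases on the x axis. Most CHR matches lie near the start site, within 50 bases of it in 28 of 39 promoters, and CCAAT boxes lie mostly upstream.

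MicroRNA-146a itself, the gene deleted in miR-146a_KO and dKO, pairs with targets through its seed, bases 2 to 8, in capitals here.
mmu-miR-146a-5p (chr11:43374435-43374456, minus strand): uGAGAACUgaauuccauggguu

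The full seed match, AGTTCTC, was looked for in the annotated 3′ untranslated regions. It was present in 4 of the 45 genes (8.9%), against 1428 of the 10818 tested genes with such a region (13.2%). The members' regions were shorter, with a median of 600 bases against 1253. The 4 matches are shown with the match in capitals.
Ccna2: tttagcttagttagcAGTTCTCttctt
Cdk1: ggatcactaggcaggAGTTCTCaacca
Ube2c: agctttgcctcagacAGTTCTCagagg
Birc5: attaattttaaattaAGTTCTCtaatc

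Both contrasts that differ only in miR-146a are given for these 4. In miR-146a_KO against WT their log2 fold changes were 0.11 ± 0.15 (SE) for Ccna2, -0.13 ± 0.21 for Cdk1, 0.02 ± 0.13 for Ube2c and -0.05 ± 0.19 for Birc5. In dKO against TIFAB_KO they were 0.32 ± 0.14 for Ccna2 (adjusted p = 0.242 in limma), -0.10 ± 0.20 for Cdk1, 0.02 ± 0.12 for Ube2c and 0.12 ± 0.18 for Birc5, and none passed.

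All 45 genes were well measured, from 88 reads in a library (Kif22) to 36082 (Mki67). Summed, they made up 0.768 to 1.30% of the reads of a library. Per kilobase of the longest annotated transcript, Mki67 (279 CPM per kb), which coats mitotic chromosomes and serves as the standard proliferation marker, and Top2a (231), the enzyme that untangles DNA, were highest. Ube2c (168), Smc4 (164), a condensin subunit, and Cks2 (154), a small partner of CDK1, came next, and Kif22 (6.35) and Gtse1 (8.02) were lowest. Across the 13 libraries Ube2c, the ubiquitin-conjugating enzyme of the anaphase-promoting complex, varied least (SD 0.069 log2 CPM, between 8.37 and 8.63). Kif22, a kinesin that pushes chromosome arms, varied most (SD 0.44, between 3.35 and 5.04).

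No member passed a Benjamini-Hochberg adjusted p of 0.05 in limma in any contrast between the groups. In the test for any difference among the 4 groups, where 0.11% of all tested rows were called, 0 of 45 were called. There 9 members (20%) had an unadjusted p under 0.05, beside 12.8% of all rows, and 8 did with limma-voom on recovered reads, which also called 0. The smallest adjusted p was 0.273, for Ckap2. The members leaned toward higher levels in libraries that lack miR-146a, by a median of 0.21 (log2), beside 0.09 over all rows. The contrast of these libraries with the rest was added after the data were seen, and 62.6% of all rows were above 0 in it. With the trend on transcript length removed the members' median was 0.09. The within-group SD of the library medians was 0.12, and the values are given next by role.

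**Figure D2:**
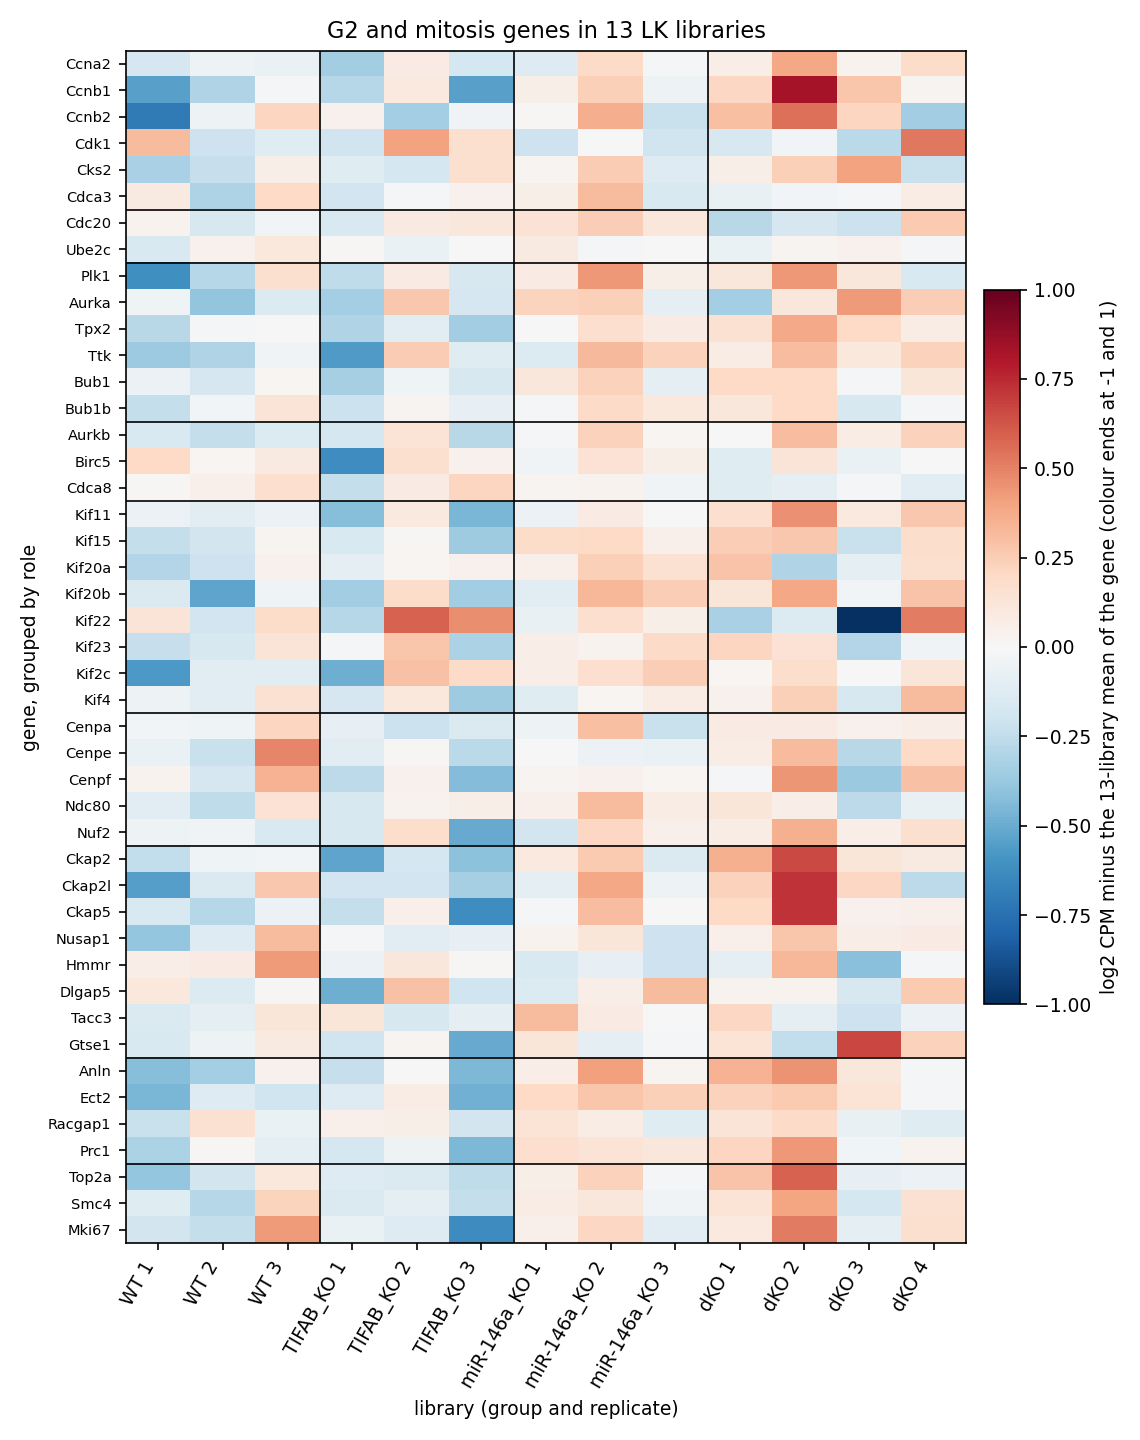
Deviation of each gene (rows, grouped by role) in each library (columns) from its mean over 13 libraries, in log2 CPM, with red above and blue below the mean. WT replicates 1 and 2 and TIFAB_KO replicates 1 and 3 are mostly blue. In miR-146a_KO replicate 2 and dKO replicate 2 most genes are red, and WT replicate 3 and TIFAB_KO replicate 2 are mixed to red.

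Cyclin B1, the activator of CDK1, gave the largest single difference from WT. Ccnb1 was at 6.38, 6.62 and 6.91 log2 CPM for WT, 6.63, 7.02 and 6.38 for TIFAB_KO, 6.98, 7.16 and 6.87 for miR-146a_KO, and 7.13, 7.76, 7.20 and 6.95 for dKO. All 4 dKO libraries lay above all 3 WT libraries, while TIFAB_KO overlapped every other group. The dKO to WT difference was 0.62 ± 0.19 (log2, SE; 1.54-fold) and did not pass (adjusted p = 0.216 in limma). Ccnb2, a second B-type cyclin, had WT values from 6.70 to 7.63 that overlapped the dKO range of 7.07 to 7.96. Ccna2, the cyclin of S phase and G2, averaged 7.90 ± 0.06 (SD) in WT and 8.17 ± 0.16 for dKO. Cdk1, the kinase, showed no such lean, with means of 5.54 ± 0.28 for WT, 5.67 ± 0.30 for TIFAB_KO, 5.41 ± 0.12 for miR-146a_KO and 5.56 ± 0.35 for dKO. Cks2 averaged 6.56 for WT and 6.84 for dKO, and Cdca3, which helps remove the CDK1 inhibitor WEE1, 5.70 in both.

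Of the 2 partners of the anaphase-promoting complex, Ube2c varied little between groups and Cdc20 varied more. Ube2c averaged 8.52 for WT, 8.50 for TIFAB_KO, 8.54 for miR-146a_KO and 8.52 for dKO, with a dKO to WT interval of -0.25 to 0.25. Cdc20, the activator of that complex, averaged 5.09 ± 0.10 (SD) for WT, 5.16 ± 0.15 for TIFAB_KO, 5.31 ± 0.07 for miR-146a_KO and 5.04 ± 0.25 for dKO, and none of its differences passed.

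Among the mitotic kinases and their activators, Tpx2, which activates Aurora A on spindle microtubules, separated most cleanly by miR-146a. Tpx2 was at 7.21, 7.47 and 7.49 for WT, 7.19, 7.39 and 7.14 for TIFAB_KO, 7.49, 7.65 and 7.57 for miR-146a_KO, and 7.64, 7.87, 7.69 and 7.57 for dKO. The 7 libraries without miR-146a all lay at or above the highest of the 6 with it. Ttk, the spindle checkpoint kinase MPS1, stood at 5.51, 5.57 and 5.84 for WT, 5.30, 6.13 and 5.75 for TIFAB_KO, 5.73, 6.20 and 6.10 for miR-146a_KO, and 5.94, 6.18, 5.97 and 6.10 for dKO. Its dKO libraries were above all WT libraries, and its TIFAB_KO libraries spanned nearly the whole range. Plk1, a kinase of mitotic entry, was 0.44 ± 0.20 above WT in miR-146a_KO (adjusted p = 0.521 in limma), with WT values of 5.45, 5.78 and 6.23 reaching into the knockout range of 6.13 to 6.50. Aurka, the spindle pole kinase, averaged 4.84 for WT and 5.14 for dKO, and the checkpoint kinases Bub1 and Bub1b averaged 6.82 and 7.18 for WT and 7.02 and 7.26 for dKO.

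The 3 genes of the chromosomal passenger complex, which corrects faulty attachments, did not move together. Aurkb, its kinase, was at 6.92, 6.84 and 6.94 for WT, 6.90, 7.22 and 6.80 for TIFAB_KO, 7.06, 7.31 and 7.10 for miR-146a_KO, and 7.08, 7.39, 7.15 and 7.31 for dKO, with every WT library below every library lacking miR-146a. Birc5, or survivin, and Cdca8, or borealin, averaged 5.38 and 6.58 for WT and 5.26 and 6.42 for dKO. The Cdca8 difference was -0.16 ± 0.13.

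Of the kinesins, motor proteins of the spindle, Kif11, which slides spindle poles apart, was highest in dKO. Its values were 8.31, 8.26 and 8.32 for WT, 7.95, 8.47 and 7.92 for TIFAB_KO, 8.32, 8.45 and 8.37 for miR-146a_KO, and 8.54, 8.83, 8.47 and 8.64 for dKO. The WT replicates lay close together (SD 0.035), and the 4 dKO libraries were above all WT and miR-146a_KO libraries, while TIFAB_KO replicate 2 reached the lowest of them. Kif15, which backs up Kif11, was at 7.65, 7.70 and 7.91 for WT, 7.73, 7.89 and 7.53 for TIFAB_KO, 8.07, 8.08 and 7.94 for miR-146a_KO, and 8.13, 8.15, 7.66 and 8.06 for dKO, where replicate 3 alone lay among the libraries with miR-146a. Kif20b, a motor of late mitosis, was at 6.81, 6.43 and 6.91 for WT, 6.60, 7.14 and 6.60 for TIFAB_KO, 6.85, 7.28 and 7.19 for miR-146a_KO, and 7.07, 7.34, 6.92 and 7.24 for dKO. Its dKO libraries exceeded all WT libraries by a narrow margin and overlapped TIFAB_KO. Kif2c, which trims microtubule ends, averaged 4.67 for WT and 4.93, 5.10 and 5.01 for TIFAB_KO, miR-146a_KO and dKO. Kif4, Kif20a and Kif23, motors of chromosome structure and the midzone, averaged 6.92, 4.95 and 6.36 for WT and 7.04, 5.12 and 6.45 for dKO. Kif22 was lower in dKO (4.19 ± 0.66) than in WT (4.49 ± 0.20), which rested on dKO replicate 3 at 3.35 log2 CPM, or 88 reads.

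Kinetochore and centromere genes lay close together in dKO and WT, with a median difference of 0.02. Cenpa, the centromeric histone, averaged 6.06 for WT and 6.08 for dKO, Cenpe, the kinetochore motor, 8.0 and 8.01, and Cenpf, a kinetochore and nuclear matrix protein, 7.62 and 7.64. Ndc80 and Nuf2, subunits of the complex that grips microtubules, averaged 5.83 and 5.64 for WT and 5.87 and 5.89 for dKO. In TIFAB_KO against WT, 4 of the 5 were below 0 with a median of -0.19, the furthest from 0 of the 9 roles, and Cenpf was at -0.29 ± 0.19, none passing the test.

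Of the spindle and microtubule proteins, Ckap2, a microtubule stabiliser, had the smallest p of all members. It was at 5.01, 5.22 and 5.23 for WT, 4.73, 5.08 and 4.85 for TIFAB_KO, 5.36, 5.53 and 5.12 for miR-146a_KO, and 5.61, 5.92, 5.38 and 5.35 for dKO. The 4 dKO libraries lay above all WT and TIFAB_KO libraries, and dKO exceeded TIFAB_KO by 0.68 ± 0.17 (1.60-fold, adjusted p = 0.130 in limma). Ckap5, the microtubule polymerase, was at 8.0, 7.87 and 8.09 for WT, 7.92, 8.21 and 7.53 for TIFAB_KO, 8.14, 8.46 and 8.15 for miR-146a_KO, and 8.35, 8.88, 8.19 and 8.20 for dKO. WT lay below both groups lacking miR-146a, and TIFAB_KO overlapped all 3 other groups. Ckap2l, a spindle pole relative of Ckap2, averaged 7.52 ± 0.41 for WT and 7.88 ± 0.40 for dKO, and Nusap1, a microtubule bundler, 7.17 and 7.36. Dlgap5, Tacc3 and Gtse1, which act on kinetochore fibres and microtubule tips, averaged 5.79, 6.56 and 4.37 for WT and 5.84, 6.56 and 4.60 for dKO. Hmmr, a spindle assembly factor, ran the other way, at 7.30, 7.32 and 7.67 for WT and 7.09, 7.15 and 7.03 for miR-146a_KO (-0.34 ± 0.17, adjusted p = 0.535 in limma). The dKO libraries of Hmmr spanned 6.82 to 7.57. Hmmr lies on chromosome 11, 2.64 Mb from Mir146.

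Cytokinesis genes had the highest median of any role without miR-146a. Ect2, the exchange factor that switches on RhoA at the division plane, was at 5.68, 6.01 and 5.94 for WT, 6.01, 6.21 and 5.65 for TIFAB_KO, 6.33, 6.41 and 6.37 for miR-146a_KO, and 6.37, 6.40, 6.27 and 6.12 for dKO. All 7 libraries lacking miR-146a were above all WT libraries, and 6 of the 7 were above every library with miR-146a. Anln, the scaffold of the contractile ring, was at 6.78, 6.87 and 7.26 for WT, 6.98, 7.21 and 6.76 for TIFAB_KO, 7.27, 7.62 and 7.24 for miR-146a_KO, and 7.55, 7.66, 7.33 and 7.20 for dKO. Its libraries with and without miR-146a overlapped, as WT replicate 3 and TIFAB_KO replicate 2 lay above dKO replicate 4. Prc1, which bundles midzone microtubules, was at 6.35, 6.68 and 6.57 for WT, 6.49, 6.62 and 6.22 for TIFAB_KO, 6.84, 6.81 and 6.78 for miR-146a_KO, and 6.89, 7.10, 6.64 and 6.70 for dKO, with WT replicate 2 inside the dKO range. Racgap1, a centralspindlin subunit, was nearly level at means of 6.38 for WT and 6.45 for dKO. Of the chromosome genes, Top2a, Smc4 and Mki67 averaged 10.05, 9.39 and 11.43 for WT, 10.04, 9.30 and 11.15 for TIFAB_KO, and 10.39, 9.58 and 11.60 for dKO.

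**Figure D3:**
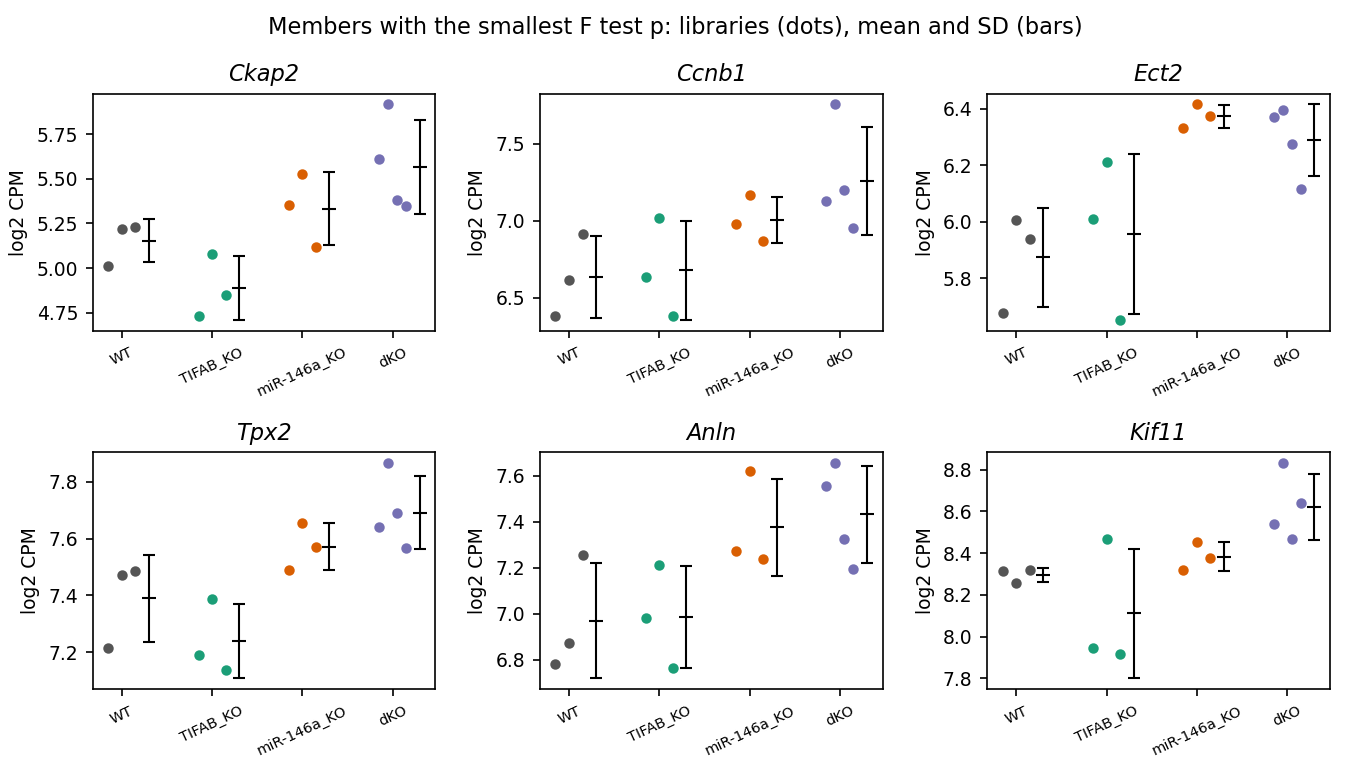
Log2 CPM of the 6 genes with the smallest p across the 4 groups, with 1 dot per library and the group mean and SD beside the dots. For Ckap2, the dKO libraries start at 5.35 and the WT libraries end at 5.23, while for Anln WT reaches 7.26, inside the dKO range.

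For loss of TIFAB alone no difference was detected. In TIFAB_KO against WT 0 of 45 were called by limma (0.0169% of all rows were), and 0 had an unadjusted p under 0.05, beside 5.11% of all rows. Limma-voom gave 0 and 0. The median log2 fold change was -0.03 (all rows, -0.01), and 18 of 45 were above 0, beside 47.6% of all rows. Values ran from -0.29 (Cenpf) to 0.26 (Kif2c). The median ran from -0.11 without TIFAB_KO replicate 2 to 0.05 without WT replicate 3. The next lowest p among members below WT belonged to Ckap2 (-0.27 ± 0.18) and Birc5 (-0.24 ± 0.19), and above it to Kif20a (0.14 ± 0.18) and Kif22 (0.21 ± 0.31). The 95% interval lay within 2-fold for all 45.

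Loss of miR-146a alone gave 37 of 45 genes above WT. None was called by limma (0.0843% of all rows were). An unadjusted p under 0.05 was found for 4 members, Ect2, Anln, Plk1 and Kif20b, all higher, which is 8.89% beside 7.23% of all rows, and limma-voom found 5 and called 0. The median was 0.17, beside 0.09 over all rows, of which 62.2% were above 0. Without miR-146a_KO replicate 2 the median was 0.086 with 1 member at an unadjusted p under 0.05, beside 3.3% of all rows higher at that p. Leaving out WT replicate 1 gave 2, 1 of them higher (all rows, 3.5%), WT replicate 2 gave 2 (5.28%) and WT replicate 3 gave 7 (8.33%). Library quality weights gave 14, 13 of them higher, beside 15.9% of all rows. Ect2 was 0.50 ± 0.16 above WT (1.41-fold, adjusted p = 0.423 in limma) and Anln 0.41 ± 0.17. Cdk1 (-0.13 ± 0.21) and Cenpe (-0.11 ± 0.18) followed Hmmr at the low end. After each library was centred on its median over the rows tested, 30 of 45 were above 0, with a median of 0.09.

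With both genes lost, 39 of 45 were above WT. In limma 0 were called (0.0674% of all rows were). The unadjusted p was under 0.05 for 10 members, all higher, 22.2% beside 9.7% of all rows, and limma-voom gave 10 with 0 called. These were Ccnb1, Anln, Ect2, Kif20b, Aurkb, Ckap2, Ckap5, Tpx2, Ttk and Kif11. Leaving out WT replicate 1 gave 3, where 4.83% of all rows were higher at that p. Leaving out dKO replicate 2 gave 4, 3 of them higher (all rows, 6.26%), and leaving out WT replicate 2 gave 6 (6.45%). The count rose to 15 without WT replicate 3 (11.2%) and to 13 without dKO replicate 3 (7.53%). Without dKO replicate 4 it was 14, 13 of them higher (14.4%). The count was 19 with library quality weights, beside 19.6% of all rows. The median was 0.20, beside 0.08 over all rows. Anln was 0.46 ± 0.16 higher (adjusted p = 0.251 in limma) and Ect2 0.41 ± 0.15. Hmmr (-0.24 ± 0.16), Cdca8 and Kif22 (-0.31 ± 0.29) were lowest. With library quality weights limma called 4, Anln, Ccnb1, Ckap5 and Kif20b, among 792 rows called in all. The interval lay within 2-fold for 44 of the 45, the exception being Ccnb1. Median centring left 31 above 0, with a median of 0.13. The 3 comparisons with WT share the same 3 WT libraries.

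**Figure D4:**
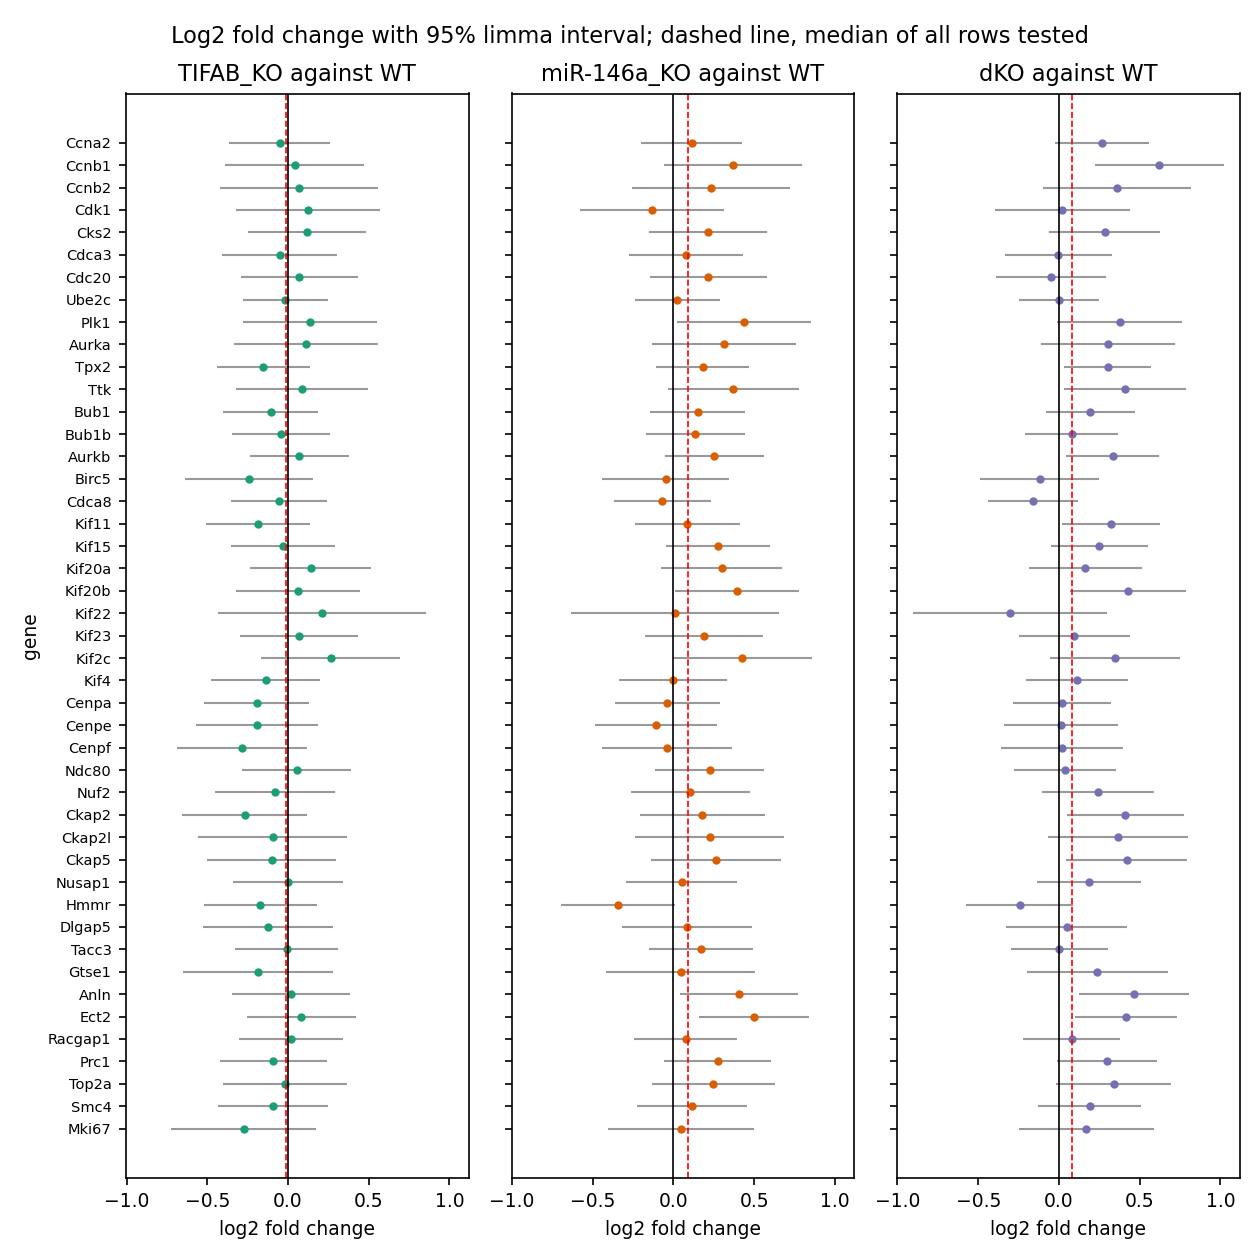
Log2 fold change (dots) and 95% limma interval (lines) of all 45 genes in each knockout against WT, with the median of all rows tested as a dashed line. Most dots lie right of 0 for miR-146a_KO (37 of 45) and dKO (39 of 45) and near 0 for TIFAB_KO (18 of 45), and most intervals cross 0.

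Between the knockouts, dKO against TIFAB_KO, which differ in miR-146a, showed the widest gap. Limma called 0 (0.0337% of all rows), 14 members had an unadjusted p under 0.05, all higher, 31.1% beside 12.6% of all rows, and limma-voom gave 15 with 0 called. The median was 0.25 (all rows, 0.09), and 39 were above 0, beside 60.1% of all rows. The 14 became 5 without TIFAB_KO replicate 3 and 7 without dKO replicate 2, where 4.56% and 8.59% of all rows were higher at that p. Without dKO replicate 1 there were 8 (9.29%), and without TIFAB_KO replicate 1 there were 9, 8 of them higher (15.6%). The count rose to 20 without TIFAB_KO replicate 2 (16.7%) and to 16 without dKO replicate 3 (10.9%). Kif11 was 0.51 ± 0.14 higher (adjusted p = 0.139 in limma) and Tpx2 0.45 ± 0.13 (adjusted p = 0.139). The low end was Kif22 (-0.52 ± 0.29), Cdca8 (-0.10 ± 0.13) and Cdc20 (-0.12 ± 0.16). In miR-146a_KO against TIFAB_KO limma called 0 (0.0843% of all rows), and 5 members, Ect2, Ckap2, Tpx2, Prc1 and Anln, had an unadjusted p under 0.05, all higher, 11.1% beside 8.4%. Limma-voom also gave 5 and called 0. The 5 became 13 without TIFAB_KO replicate 2 and 2 without TIFAB_KO replicate 1 (all rows higher at that p, 13.6% and 12.1%). They became 1 without TIFAB_KO replicate 3 and 0 without miR-146a_KO replicate 2 (all rows, 2.45% and 4.03%). Ect2 was 0.42 ± 0.16, Ckap2 0.45 ± 0.18 and Tpx2 0.33 ± 0.14 higher, and Cdk1 (-0.26 ± 0.21), Hmmr (-0.17 ± 0.17) and Kif22 (-0.20 ± 0.31) were lowest.

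Between dKO and miR-146a_KO, which differ in TIFAB, no difference was detected. In dKO against miR-146a_KO 0 members were called by limma (0.0506% of all rows), 0 had an unadjusted p under 0.05 beside 1.93% of all rows, and limma-voom gave 0 and 0. The median was 0.06 (all rows, -0.01), all 45 intervals lay within 2-fold, and 28 of 45 were above 0, beside 47.8% of all rows. Without dKO replicate 2 the median turned to -0.025, with 17 of 45 above 0. Kif11 (0.24 ± 0.14), Ckap2 (0.23 ± 0.17) and Ccnb1 (0.25 ± 0.19) were nearest to higher, and Cdc20 (-0.27 ± 0.16), Ndc80 (-0.19 ± 0.15) and Tacc3 (-0.17 ± 0.14) nearest to lower. The interaction, which asks whether both losses differ from the sum of each, called 0 members (0% of all rows), 0 passed unadjusted beside 4.23% of all rows, and limma-voom gave 0 and 0. The smallest p among terms above 0 belonged to Kif11 (0.42 ± 0.21), Ckap2 (0.50 ± 0.25, adjusted p = 1.00 in limma) and Tpx2 (0.27 ± 0.19). Mki67 (0.40 ± 0.29), Gtse1 (0.38 ± 0.30) and Cenpf (0.34 ± 0.26) had larger terms than Tpx2 with wider errors. The smallest p below 0 belonged to Kif22 (-0.52 ± 0.42), Kif2c (-0.35 ± 0.28) and Cdc20 (-0.34 ± 0.24). The interval lay within 2-fold for 41 of 45, so larger departures from the sum were possible for 4 members.

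Since miR-146a_KO and dKO leaned the same way, the 7 libraries lacking miR-146a were set against the 6 with it, as the mean of miR-146a_KO minus WT and dKO minus TIFAB_KO. This contrast was added after the data were seen. It called 0 members in limma while calling 0.733% of all rows. For 17 members, all higher, the unadjusted p was under 0.05, 37.8% beside 16.8% of all rows, and limma-voom gave 16 with 0 called. The 17 became 10 without miR-146a_KO replicate 2, where 12.2% of all rows were higher at that p. They became 20 without TIFAB_KO replicate 2, beside 20% of all rows. The closest were Ect2 (0.41 ± 0.11, 1.33-fold, adjusted p = 0.0668 in limma), Anln (0.43 ± 0.12, adjusted p = 0.0700) and Ccnb1 (0.48 ± 0.14, adjusted p = 0.0792). The median was 0.21, beside 0.09 over all rows, and 41 of 45 were above 0, beside 62.6% of all rows. By role, the medians ran from 0.37 for the 4 cytokinesis genes and 0.28 for the 6 kinases and activators, through 0.25 for the chromosome genes, 0.21 for the kinesins, 0.20 for the cyclins and 0.18 for the spindle proteins, to 0.10 for the kinetochore genes, 0.04 for the passenger complex and 0.03 for the anaphase-promoting complex partners. Hmmr (-0.21 ± 0.12), Kif22 (-0.25 ± 0.21), Cdca8 (-0.09 ± 0.10) and Cdk1 were below 0.

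The lean did not separate the libraries. The members' median deviation from their 13-library means was -0.15, -0.16 and 0.06 for WT, -0.19, 0.04 and -0.19 for TIFAB_KO, 0.03, 0.20 and 0.00 for miR-146a_KO, and 0.11, 0.27, -0.01 and 0.08 for dKO. WT replicate 3 and TIFAB_KO replicate 2 lay among the libraries lacking miR-146a, and dKO replicate 2 had the highest median. It had 37 of 45 members above their mean, and miR-146a_KO replicate 2 had 40. Without WT replicate 3 the pooled contrast called 1 member, Anln, among 206 rows called in all. Without TIFAB_KO replicate 2 it called 9, Anln, Ccnb1, Ckap2, Ckap5, Ect2, Kif11, Kif20b, Tpx2 and Ttk, among 802 rows. Without dKO replicate 4 it called 5, Anln, Ccnb1, Ckap2, Ect2 and Tpx2, among 1040 rows. With library quality weights it called 4, Anln, Ccnb1, Ckap2 and Ect2, among 693 rows. Without the 2 libraries that stood apart, the median was 0.19 (all rows, 0.06). There 17 members had an unadjusted p under 0.05, all higher, beside 11.2% of all rows.

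Transcript length moved with the same contrast. The slope of the deviation from the gene mean on log2 transcript length, over all rows with a length, was -0.07, -0.02 and -0.02 for WT, -0.01, 0.01 and -0.19 for TIFAB_KO, 0.01, 0.03 and 0.05 for miR-146a_KO, and 0.08, 0.09, 0.02 and 0.02 for dKO. It was thus above 0 in all 7 libraries lacking miR-146a and also in TIFAB_KO replicate 2 (0.0062, beside 0.0067 for miR-146a_KO replicate 1). The slope was lowest in TIFAB_KO replicate 3. The share of 45S pre-rRNA reads went with the members at its low and high ends. It was 7.66, 9.09 and 4.20% for WT, 6.57, 7.08 and 10.7% for TIFAB_KO, 5.76, 3.85 and 6.99% for miR-146a_KO, and 4.65, 4.36, 6.40 and 6.43% for dKO. The 4 libraries with the lowest shares, miR-146a_KO replicate 2, WT replicate 3 and dKO replicates 2 and 1, had members' medians of 0.20, 0.06, 0.27 and 0.11, and the 3 with the highest, TIFAB_KO replicate 3 and WT replicates 2 and 1, had -0.19, -0.16 and -0.15. Between these ends, TIFAB_KO replicate 1 had the lowest members' median of all (-0.188) at a share of 6.57%. TIFAB_KO replicate 2 had a median of 0.04 at 7.08%. In TIFAB_KO replicate 3 the 22 members with longer transcripts had a median deviation of -0.31 and the 23 with shorter ones -0.12. With the length trend removed from each library, an alternative chosen after the data were seen, the pooled median was 0.09 (all rows, 0.00). There 32 of 45 were above 0, and 11 had an unadjusted p under 0.05, 10 of them higher, beside 8.7% of all rows. Median centring gave 36 above 0 with a median of 0.15, and quantile normalization 32 with a median of 0.12. The part of the 45S share in the members' values was not tested.

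**Figure D5:**
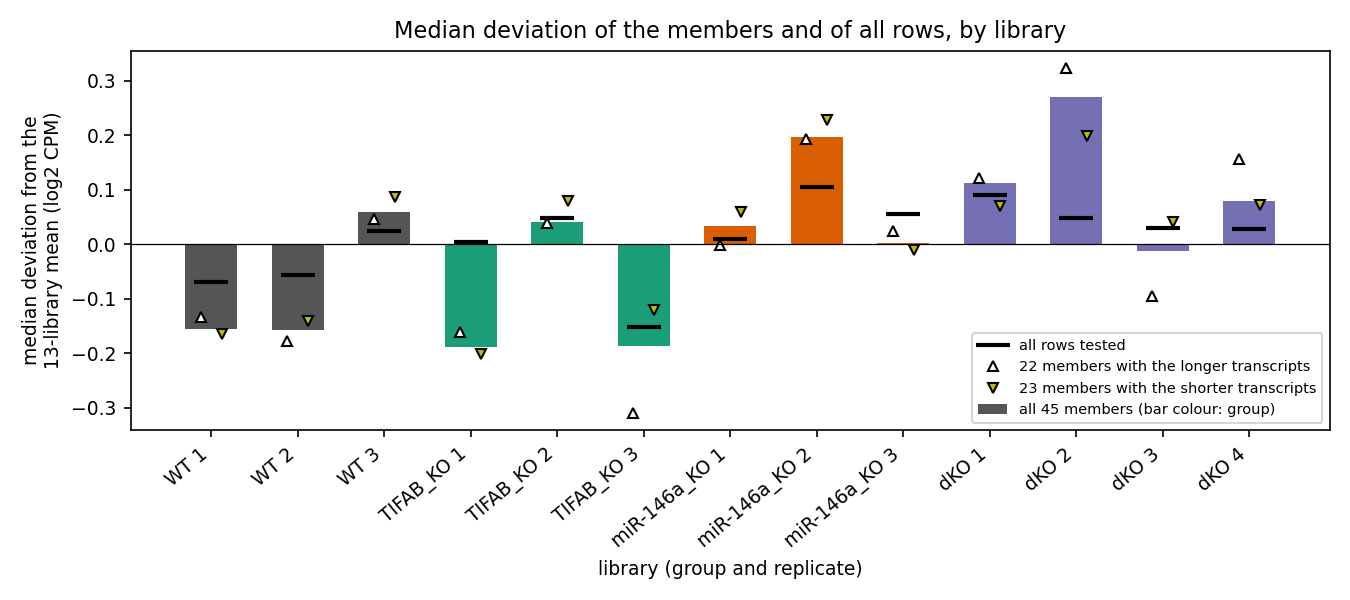
Median deviation from the 13-library gene mean (log2 CPM) for all 45 genes (bars, coloured by group), the 22 with longer and 23 with shorter transcripts (triangles) and all rows tested (black lines), by library. The bars range from -0.19 to 0.27 and follow the black lines in direction in most libraries, and in TIFAB_KO replicate 3 the longer genes are lowest.

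Other genes of the cell cycle, from lists that do not share these 45, gave medians in the pooled contrast between 0.03 and 0.40. The values were 0.14 for 52 other mitotic genes (37 above 0, 1 called), 0.14 for 23 G2 and M regulators (18 above 0, 0 called), 0.15 for 18 condensin and cohesin genes (13, 0) and 0.03 for 15 anaphase-promoting complex subunits (8, 0). S phase genes had 0.07 (25 of 38 above 0, 0 called), G1 and E2F regulators 0.26 (17 of 20, 0 called) and DNA damage and checkpoint genes 0.40 (10 of 10, 1 called). None of these lists had a call in the 7 contrasts of the design. Of these 7 lists 5 had a median above the 0.09 of all rows.

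The other mitotic gene called was Pttg1, securin, the inhibitor of separase that the anaphase-promoting complex removes. It was at 4.09, 3.85 and 5.04 log2 CPM for WT, 4.31, 3.89 and 4.51 for TIFAB_KO, 5.34, 5.50 and 4.88 for miR-146a_KO, and 5.31, 5.19, 5.62 and 4.78 for dKO, from 141 to 475 reads. Only WT replicate 3 reached the libraries lacking miR-146a. The pooled difference was 0.95 ± 0.19 (adjusted p = 0.0403 in limma), and it passed in 10 of 23 alternatives, whose values ran from 0.83 to 1.13. Pttg1 (chr11:43420250-43426251) is a neighbour of Mir146, 45.8 kb away, so an effect of the deletion on its neighbour and one through miR-146a cannot be told apart. Blm, the helicase called among the DNA damage genes, was 0.45 ± 0.10 higher (adjusted p = 0.0499) and passed in 7 of 23.

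Markers of other cell types were summed per library. The B-lineage sum was 18.7 to 24.8 CPM for WT, 18.4 to 24.2 for TIFAB_KO, 32.4 to 45.1 for miR-146a_KO and 21.8 to 35.4 for dKO, from 12 genes of which 5 were tested, and 0 were called. Granulocyte-monocyte progenitor markers summed to 9261 to 14907 CPM for WT, 17726 to 19390 for TIFAB_KO, 12561 to 16094 for miR-146a_KO and 10393 to 15221 for dKO, and erythroid markers to 3044 to 3817, 1993 to 2379, 2233 to 2707 and 2164 to 3468. In the pooled contrast, which called 0.733% of all rows, 1 of 15 megakaryocyte and platelet markers was called. This was Pf4, a platelet chemokine, at -0.68 ± 0.16 (adjusted p = 0.0499 in limma), which passed in 8 of 23 alternatives. Of 15 mast cell, basophil and eosinophil markers 1 was called there, Cyp11a1, at 2.12 ± 0.44 (adjusted p = 0.0404 in limma). Cyp11a1, a steroid-forming enzyme, passed in 8 of 22 alternatives and had 5 to 176 reads in a library. T and NK cell markers (4 tested), stromal and endothelial markers (7), stem and multipotent progenitor markers (14), late granulocyte markers (10), macrophage and dendritic cell markers (13), cell cycle exit genes (11) and immediate early genes (19) had 0 called in that contrast. Several lists leaned 1 way in TIFAB_KO against WT without a call, where 5.11% of all rows had an unadjusted p under 0.05 in both directions together. All 19 immediate early genes, which cells induce quickly on stimulation, were below 0 there, with a median of -0.75 (all rows, -0.01) and 13 at that p. Their median was -0.49 in miR-146a_KO against WT (8 at that p, all lower) and -0.45 in dKO against WT (6, all lower). Over all rows the medians of those contrasts were 0.09 and 0.08. The summed level of the 19 was 6765 to 7772 CPM for WT, 3191 to 6892 for TIFAB_KO, 4105 to 7151 for miR-146a_KO and 4138 to 6632 for dKO. Granulocyte-monocyte progenitor markers had a median of 0.74 in TIFAB_KO against WT (10 of 16 at that p, all higher) and macrophage and dendritic cell markers 0.96 (6 of 13, all higher). Mast cell, basophil and eosinophil markers had 1.13 there (7 of 15, 6 of them higher) and erythroid markers -0.32 (6 of 18, all lower). In miR-146a_KO and dKO against WT medians were 0.23 and 0.10 for granulocyte-monocyte progenitor markers and 0.75 and 0.57 for macrophage and dendritic cell markers. They were 0.91 and 0.66 for the mast cell, basophil and eosinophil markers and -0.19 and -0.08 for the erythroid markers. The part of these genes and cell types in the members' values was not tested.

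Some members share sequence or position with another gene. Ccnb1, Ccnb2, Kif22 and Kif4 have annotated pseudogenes, and exons of 12 members, among them Ccna2, Cdc20, Ube2c, Plk1, Nusap1 and Prc1, overlap exons of a gene on the other strand. No source used here says whether reads were counted by strand, so those levels are uncertain to that extent. Of the 12 genes with the smallest p across the groups, only Ccnb1 and Prc1 are in either set.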

How the data were processed

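Bulk RNA of 13 LK libraries in 4 groups was analysed. Per the labels' protocols, amplification used NuGEN's Ovation system and library preparation Illumina's Nextera XT kit. The submitters' processing notes name TopHat, mm10, featureCounts and limma without versions. The authors deposited log2 CPM values in voom's format (each gene's reads plus 0.5, over the library total plus 1), which reverted to whole reads for 100% of values within 0.01 read. All columns of per-sample values were used.

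The test was limma 3.58.1 in R 4.3.3 on the deposited log2 CPM, with a mean for each group estimated from the 13 libraries together (9 residual and 9.53 prior degrees of freedom) and variances moderated with a trend. It covered the 11867 rows averaging 0 log2 CPM or more. Calls were made per contrast at 0.05 after Benjamini-Hochberg adjustment. Errors of fold changes are limma SE and those of groups SD. A positive fold change is higher in the first group named. Depth was 7.83 to 12.8 M reads. The fit was tested on simulated data. Sequences came from RefSeq (GRCm38.p6) and annotation from GENCODE M21 (GRCm38).

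Members and lists were chosen with earlier results of these data known. Genes given in detail were the 12 with the smallest p across groups and, per contrast, the 3 per direction with the smallest p. Of the listed genes outside the members, those called were named. Replicate numbers did not pair the libraries.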

Additional observations from a re-analysis of the deposited data

Results flagged for a closer look

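Nusap1, the microtubule bundler, was at 7.51 log2 CPM in dKO replicate 2, with the other 3 dKO libraries between 7.29 and 7.32, so that library lay far from the rest of its group. Of 46 sets of dKO values tested this way, 1 was marked, and chance marks about 1 in 20.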

How the results depend on the processing

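Alternatives changed the filter, scaling, variance model, library weights, libraries, replicate block, threshold and, after the data were seen, the length trend. Members called stayed at 0 under every alternative in TIFAB_KO against WT, miR-146a_KO against WT, dKO against miR-146a_KO, miR-146a_KO against TIFAB_KO, the interaction and the test across groups. With library quality weights 4 members were called in dKO against WT, among 792 rows, and 4 in the pooled contrast, among 693. With an adjusted p under 0.1 the pooled contrast, of libraries lacking miR-146a against those with it, called 7. The share of all rows called at that threshold was not taken, so the 7 cannot be set against a background. Leaving out 1 library gave 0 to 1 calls in dKO against TIFAB_KO and 0 to 9 in the pooled contrast. The former were Kif11 without TIFAB_KO replicate 2, among 124 rows called, and Ckap2 without dKO replicate 4, among 278. The 9 were among 802 rows. Quantile normalization moved the median of dKO against TIFAB_KO to 0.12, and removing the length trend moved the pooled median to 0.091. With median centring, members at an unadjusted p under 0.05 numbered 2 in miR-146a_KO against WT, 1 of them higher. They numbered 6 in dKO against WT and 7 in dKO against TIFAB_KO, all higher. With no variance trend the counts in the same order were 1, 7 and 8, all higher. All rows higher at that p made up 4.31, 6.69 and 10.4% with median centring, and 6.2, 8.16 and 10.3% with no variance trend. The causes were not tested. Leaving out 1 library gave pooled medians of 0.17 to 0.25. In miR-146a_KO against WT, Cdk1 ran from -0.23 to 0.027 as each library was left out, turning without WT replicate 1, and Cenpe from -0.26 to 0.10, turning without WT replicate 3 and, at 0.018, with quality weights.

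Replicate numbers paired nothing: of 18 pairs of libraries with the same number 2 had a correlation of deviations over 0.1 (-0.20 to 0.23), and 3 of 13 libraries correlated best with their own number. With the replicate block 1 member was called in dKO against WT (Ccnb1), 1 in dKO against TIFAB_KO (Ckap2) and 6 in the pooled contrast. All rows called there numbered 281, 146 and 869. Every member had at least 88 reads in every library, and each group had 3 or 4 libraries.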
